A study of Mus musculus with 31 samples.

Results

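This account describes 30 genes of fatty acid oxidation and of the PPAR transcription factors in mouse Ly6C-high blood and tumor monocytes. The members were picked by gene symbol from the deposited table of gene counts, which has 24411 entries, and all 30 symbols were found there. They comprise 4 long-chain acyl-CoA synthetases, 3 genes of the carnitine shuttle, 4 acyl-CoA dehydrogenases, 5 genes of the later steps of mitochondrial beta-oxidation, 3 isomerase and reductase genes, 3 electron transfer genes, 3 peroxisomal genes, and 5 genes of PPAR receptors and PGC-1 coactivators.

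RNA was sequenced from monocytes of C57BL/6J mice in 3 groups of 3 libraries each. Healthy blood is blood of mice without a tumor, LLC blood is blood of mice that carried a subcutaneous Lewis lung carcinoma (LLC, a transplantable lung tumor line), and LLC tumor is the tumor itself. The sort gate was the same for all groups and kept CD11b+ Ly6G- Ly6Chi MHC-II- cells. The labels name no transgene, drug or time after tumor injection for these libraries, do not give the age of the mice, and do not say whether animals were pooled or whether blood and tumor came from the same mice, so the p-values measure the spread between libraries.

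Fatty acids enter oxidation as acyl-CoA esters made by acyl-CoA synthetases. Long chains cross into mitochondria on carnitine, carried by CPT1 on the outer membrane, a translocase and CPT2 on the inner membrane, and are then shortened by repeated cycles of dehydrogenation, hydration, a further oxidation and thiolysis, while peroxisomes shorten very long and branched chains. PPAR-alpha, PPAR-delta and PPAR-gamma are nuclear receptors for fatty acids that pair with RXR on DNA and activate many genes of lipid use, and PGC-1 proteins are their coactivators. In monocytes and macrophages PPAR-gamma and PPAR-delta are known for control of lipid handling and of alternative activation.

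The DNA element of PPAR and RXR is 2 copies of the half-site AGGTCA with 1 base between them (AGGTCANAGGTCA, searched on both strands). RefSeq promoters of the GRCm38.p6 build, cut to the 250 bases before the start of each transcript, were matched for 27 of the 30 members, with 30 promoters in all. Ppargc1b, Acaa2 and Decr1 had no entry in the promoter table. The full element was present letter for letter in 0 of 30 member promoters and in 11 of 32851 promoters in all (0.0335%). With at least 10 of its 12 fixed letters matched, it was found in 2 member promoters (6.67%), those of Echs1 and Etfa, against 3.24% of all promoters. The half-site alone, AGGTCA or TGACCT, lay in 6 member promoters (20%) of 5 genes, namely Acadm, Acadvl, Cpt1a, Echs1 and Pparg, against 14% of all promoters. The half-site lies within the full element, so these counts overlap. The median GC content was 59.8% in member promoters and 52.4% in all. A match describes the letters only.

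3 promoters are printed 5′ to 3′ on the strand of the gene, with half-sites in capitals. Echs1 and Acadm, which were lower in tumor monocytes, each hold 1 half-site. Cpt1a and Pparg were also lower and hold half-sites, but other members that were lower, such as Acsl1, Acox3 and Etfb, hold none. Acadvl holds 1 and was called in no comparison. A link between half-sites and changes in level was not tested. The Hadhb window (no half-site) is shown because it lies between Hadhb and Hadha, whose starts are 273 bases apart on opposite strands and whose levels are compared further on. The windows are chr7:140116422-140116671 (minus strand) for Echs1, chr3:153944644-153944893 (minus strand) for Acadm and chr5:30155003-30155252 (plus strand) for Hadhb.
Echs1: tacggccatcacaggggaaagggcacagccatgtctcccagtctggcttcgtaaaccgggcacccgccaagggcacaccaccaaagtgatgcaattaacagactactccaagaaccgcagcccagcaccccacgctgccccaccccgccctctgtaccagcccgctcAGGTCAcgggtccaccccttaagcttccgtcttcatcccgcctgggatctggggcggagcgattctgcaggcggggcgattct
Acadm: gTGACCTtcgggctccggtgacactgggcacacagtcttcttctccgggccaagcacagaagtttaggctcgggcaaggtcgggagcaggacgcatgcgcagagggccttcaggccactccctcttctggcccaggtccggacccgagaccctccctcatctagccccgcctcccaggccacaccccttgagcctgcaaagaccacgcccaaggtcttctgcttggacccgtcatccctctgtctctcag
Hadhb: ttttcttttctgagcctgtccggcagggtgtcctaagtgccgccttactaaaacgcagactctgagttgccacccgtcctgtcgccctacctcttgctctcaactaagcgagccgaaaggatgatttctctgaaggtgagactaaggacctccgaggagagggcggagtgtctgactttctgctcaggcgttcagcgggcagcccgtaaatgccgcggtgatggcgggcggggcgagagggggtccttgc

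Library totals ran from 10457492 counts (LLC blood 1) to 20706412 counts (LLC blood 3). Levels are CPM (read counts scaled to a common library total) after scaling with TMM factors, as mean ± SD over 3 libraries, and they are not compared between genes because transcript lengths were not used. A gene was called higher or lower at an adjusted p under 0.05 in an edgeR quasi-likelihood test over 12337 genes. Of the 30 members, 28 had enough counts for the test. LLC tumor 1 stood apart from the other tumor libraries: the chi-square per gene between it and LLC tumor 2 and 3 was 48.3 and 38, against 6.93 between those 2 and 4.72 to 14.6 between blood libraries of a group. Its TMM factor was 0.798, against 0.968 to 1.067 in the other libraries, and a low factor raises the scaled CPM of every gene in that library.

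The labelled cell type was checked on marker lists. The 10 monocyte and sorting genes found in the table summed to between 6290 and 9538 CPM in every library. Macrophage markers (9 genes) summed to 1267 to 1475 CPM in healthy blood, 715.9 to 731.4 in LLC blood and 1680 to 3102 in LLC tumor. Apoe made up most of the sum in healthy blood (893.7 to 1078 CPM). It was at 292.65 to 338.2 CPM in LLC blood and 1208, 647.7 and 555.3 in tumor. Mrc1 was at 16.1 to 25.6 CPM in healthy blood, 5.89 to 8.01 in LLC blood and 291.6 to 497.3 in tumor, and C1qa at 3.03 to 10.4, 1.30 to 1.91 and 141.1 to 245.6. C1qb, C1qc, Mertk and Gpnmb were also higher in each tumor library than in each blood library, while Trem2 overlapped between LLC blood and tumor. Adgre1 went the other way, with 280.6 to 288.4 CPM in healthy blood, 290.7 to 323.5 in LLC blood and 169.5 to 266.3 in tumor. Fibroblast markers (7 genes) summed to 5.81 to 16.3 CPM in healthy blood and to 1176, 3477 and 4064 CPM in the tumor libraries. They reached 394.1 CPM in LLC blood 1, against 3.44 and 4.40 in the other LLC blood libraries. Endothelial markers (6 genes) summed to at most 18.1 CPM in blood and 51.2 to 87.3 in tumor. Pecam1 made up most of these sums, with 9.28 to 16.6 CPM in blood and 41.0 to 70.3 in tumor. In tumor Kdr was at 5.95 to 13.5 CPM and Cdh5 at 3.17 to 4.56, and Tek, Emcn and Cldn5 reached at most 0.89, 0.18 and 0.44. Platelet markers (5 genes) summed to at most 18.9 CPM in blood and 143.2 to 278.4 in tumor. Pf4 (72.9 to 138.7 CPM) and Ppbp (68.3 to 138.4) made up nearly all of the tumor sum. Gp9, Gp1bb and Itga2b reached at most 0.27, 0.52 and 1.78 CPM there, and Itga2b was at 2.15 to 5.58 in healthy blood. Epithelial and LLC markers (7 genes) summed to at most 2.598 CPM in blood and 78.0 to 101.5 in tumor. Cdh1 (40.6 to 66.2 CPM), Krt8 (7.92 to 14.2) and Krt18 (4.98 to 34.9) made up nearly all of that tumor sum. Epcam and Krt19 stayed at or under 3 counts in each tumor library, and Sftpc and Nkx2-1 were at 0. Of 10 adipocyte markers, 7 to 8 stayed at or under 3 counts in each group's libraries, and Lep was at 0 throughout. Neutrophil markers (11 genes) summed to 178.0 to 358.3 CPM in healthy blood, 315.9 to 772.5 in LLC blood and 219.9 to 405.2 in tumor. Of these sums Mmp8 made up 161.7 to 174.0, 219.5 to 293.8 and 153.7 to 174.1 CPM. S100a8 varied between libraries: 2.84, 59.1 and 4.51 CPM in healthy blood, 47.5, 203.0 and 160.8 in LLC blood, and 29.1, 111.9 and 77.5 in tumor. NK cell markers (7 genes) summed to at least 164.3 CPM in healthy blood and at most 42.2 in LLC blood and 3.82 in tumor. T cell markers (6 genes) lay at 17.6 to 92.2 CPM in healthy blood, 1.69 to 3.28 in LLC blood and 6.44 to 14.0 in tumor. Cd28 made up 5.63 to 13.2 CPM of the tumor sum, and each other T cell gene reached at most 0.71 CPM there. B cell markers (6 genes) lay at 16.7 to 160.8, 9.73 to 13.8 and 3.17 to 4.56. Erythroid markers (6 genes) lay at 160.1 to 861.9 CPM in blood and at most 3.46 in tumor, and dendritic cell markers (7 genes) at 77.5 to 83.0, 23.2 to 37.5 and 7.81 to 9.41. These levels move with the groups compared, and their part in the results was not tested. In bulk libraries, fewer cells of a type and less RNA per cell cannot be told apart.

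The first comparison asks what a tumor elsewhere in the body goes with in circulating monocytes. LLC blood differed little from healthy blood in these genes: Acsl1, Acox3 and Acaa1a were higher by 1.23 to 1.34-fold, and no member was called lower. That is 3 of 28 tested members (10.7%), while 23.6% of all genes tested were called (14% higher and 9.61% lower). A further 6 members had an unadjusted p under 0.05 without passing the adjustment, giving 9 in all (32.1%), beside 36.8% of all genes. The median log2 fold change of the tested members was 0.13, against -0.01 over all genes, with 20 members positive (71.4%) beside 48.7% of all genes. No member was called with a change of 2-fold or more, where 6.23% of all genes were. The libraries of the groups did not overlap for 9 members in the higher direction, where 25.7% of all genes did not, and for 4 in the lower, against 26.1%. The count of calls depended on single libraries: 1 member was called without healthy blood 2 and 7 without LLC tumor 1 (5 higher, 2 lower), and 7 without LLC blood 1 and LLC tumor 1 together (6 higher, 1 lower). The count over all genes moved with them, from 2917 to 1873, 5064 and 5364.

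The second comparison sets monocytes in the tumor against those in the blood of tumor-bearing mice. Of 28 tested members 16 fell (Cpt1a by 2.82-fold, Acox3 by 2.71-fold, Acsl1 by 2.66-fold) and 3 rose (Acsl3, Acsl4 and Acadl). Of the 25 tested oxidation genes, without receptors and coactivators, 14 fell and 3 rose. These 19 members are 67.9% of those tested, and 61.3% of all genes tested were called (29.6% higher and 31.7% lower), so the total was close to the background while the members split 3 higher to 16 lower. The median log2 fold change was -0.34, against -0.03 over all genes. The tumor and LLC blood libraries did not overlap for the same counts of members, 3 higher and 16 lower, against 31.4% and 34.5% of all genes. Called with at least a 2-fold change were 7 members, and 28.7% of all genes. Without LLC blood 1 and LLC tumor 1 together, 3 members were higher and 15 lower, and the count over all genes rose from 7566 to 8567.

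Against healthy blood, 6 members were higher in the tumor and 13 lower, which is 67.9% of those tested beside 66.5% of all genes (33.5% higher and 33% lower). The median log2 fold change was -0.30, against -0.0025 over all genes. Called with a change of at least 2-fold were 7 members and 32.3% of all genes. The libraries did not overlap for 6 members in the higher direction and 17 in the lower, against 34.4% and 35.3% of all genes. Without LLC blood 1 and LLC tumor 1 together, 6 members were higher and 16 lower, and the count over all genes rose from 8208 to 9627. The tumor comparisons share their tumor libraries and each blood group enters 2 comparisons, so the 3 comparisons are not independent. Side by side, 10 members were called lower in the tumor against both blood groups without a call between the blood groups, 3 (Acsl1, Acox3 and Acaa1a) were higher in LLC blood and lower in the tumor against both, and 3 (Acsl3, Acsl4 and Acadl) were higher in the tumor against both. A further 3 (Acads, Eci2 and Ppargc1b) were lower only against LLC blood by call, 3 (Hadha, Etfdh and Ppard) were higher only against healthy blood by call, and 6 (Slc25a20, Acadvl, Hadhb, Decr1, Etfa and Ehhadh) were called nowhere. Whether the calls differ between comparisons was not tested.

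**Figure D1:**
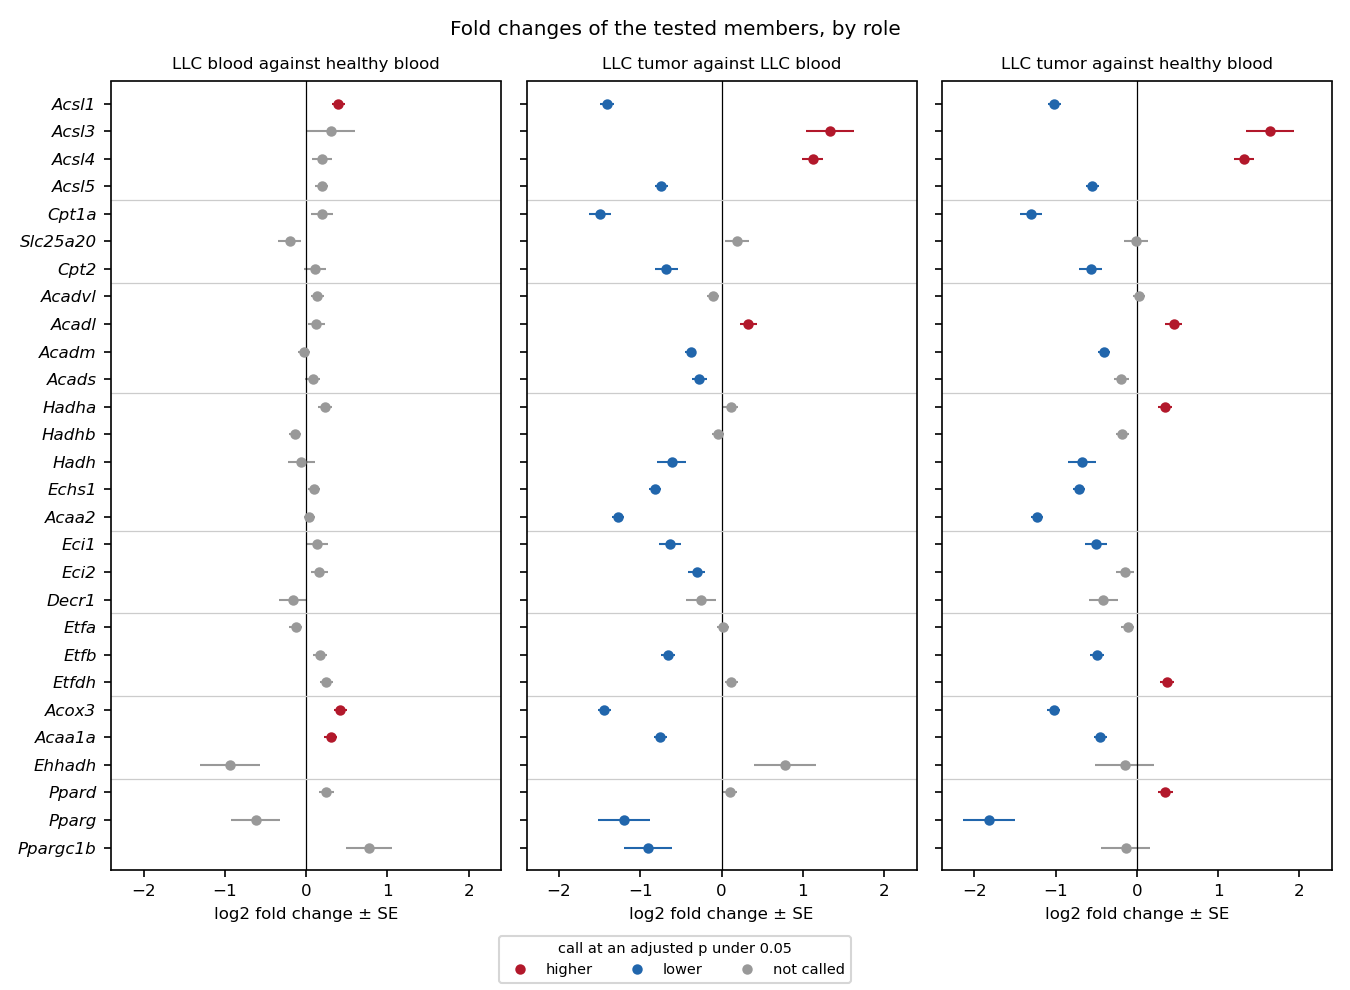
Log2 fold change with its standard error (x axis) of each of the 28 tested members (y axis, ordered by role, grey lines between roles) in the 3 comparisons. Red and blue points were called higher or lower at an adjusted p under 0.05: 3 and 0 members in the blood comparison, 3 and 16 in LLC tumor against LLC blood, 6 and 13 in LLC tumor against healthy blood.

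The acyl-CoA synthetases, which activate fatty acids, moved in both directions in the tumor: all 4 were called, 2 higher and 2 lower. Acsl1 (ENSMUSG00000018796, chr8:46471037-46536051 in GRCm38.p6), the main synthetase of many oxidative tissues and one that is induced in inflammatory macrophages, stood at 63.5, 61.6 and 63.0 CPM in healthy blood, 84.8, 81.1 and 81.3 in LLC blood and 34.1, 27.9 and 31.1 in tumor. Each LLC blood library was above each healthy library, and each tumor library was below both. The log2 fold change was 0.39 ± 0.08 (SE, edgeR adjusted p = 0.00756) between the blood groups, -1.41 ± 0.08 (adjusted p = 1.04e-06) in tumor against LLC blood and -1.02 ± 0.08 (adjusted p = 5.94e-06) against healthy blood. Without healthy blood 2 the blood difference was 0.33 with an adjusted p of 0.0583.

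Acsl4 (ENSMUSG00000031278, chrX:142317993-142390802), which prefers arachidonic acid and feeds polyunsaturated chains into membrane lipids, moved the opposite way. Its levels were 45.9, 49.9 and 55.2 CPM in healthy blood, 48.2, 59.0 and 65.2 in LLC blood and 140.9, 120.8 and 114.9 in tumor. The blood groups overlapped, and every tumor library lay above every blood library. In tumor against LLC blood the log2 fold change was 1.12 ± 0.13 (SE, edgeR adjusted p = 5.56e-05), a 2.18-fold rise, and against healthy blood 1.32 ± 0.13 (adjusted p = 1.84e-05).

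Acsl3 (ENSMUSG00000032883, chr1:78657825-78707743), a synthetase of the endoplasmic reticulum and of lipid droplets, had 4.69, 5.98 and 5.88 CPM in healthy blood, 5.83, 6.64 and 7.90 in LLC blood and 9.31, 20.6 and 21.6 in tumor. LLC tumor 1 was the lowest of the tumor libraries by a wide margin, yet above all blood libraries. The log2 fold change in tumor against LLC blood was 1.34 ± 0.29 (SE, edgeR adjusted p = 0.00306), with counts that were not whole, as shared reads give, in 8 of 9 libraries. Acsl5, a synthetase of mitochondria and endoplasmic reticulum, ranged from 151.4 to 171.2 CPM in healthy blood, from 185.4 to 189.7 in LLC blood and from 101.6 to 121.1 in tumor. It fell by 0.74 on the log2 scale in tumor against LLC blood (SE 0.08, edgeR adjusted p = 5.05e-05).

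The carnitine shuttle was lower in the tumor at both transferases, and the translocase was not called. Cpt1a (ENSMUSG00000024900, chr19:3322326-3385735), the entry step that malonyl-CoA inhibits, stood at 343.8, 309.3 and 247.3 CPM in healthy blood, 310.5, 367.6 and 349.9 in LLC blood and 108.6, 137.0 and 118.9 in tumor. The blood groups overlapped and the tumor libraries were below all of them. Cpt1a had the largest fall of the members on the log2 scale in tumor against LLC blood, -1.50 ± 0.14 (SE, edgeR adjusted p = 1.6e-05), and -1.30 ± 0.14 against healthy blood (adjusted p = 3.14e-05). The difference between the blood groups was 0.19 ± 0.13 (adjusted p = 0.337).

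Cpt2 (ENSMUSG00000028607, chr4:107903982-107923589), which frees the acyl-CoA from carnitine inside the mitochondrion, had 17.4, 19.99 and 19.6 CPM in healthy blood, 19.7, 22.0 and 19.7 in LLC blood and 9.96, 14.9 and 13.3 in tumor. No tumor library reached a blood library, and LLC tumor 1 was the lowest. Cpt2 had a log2 fold change of -0.68 ± 0.14 (SE, edgeR adjusted p = 0.00265) against LLC blood and -0.57 ± 0.14 (adjusted p = 0.00628) against healthy blood. Slc25a20, the translocase that exchanges acylcarnitine for carnitine, had 44.9 ± 4.24 CPM in healthy blood, 38.9 ± 5.87 in LLC blood and 44.5 ± 7.63 in tumor (SD, n = 3). Its tumor and blood libraries overlapped, with a log2 difference of 0.19 against LLC blood (adjusted p = 0.287).

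The acyl-CoA dehydrogenases, which take the first oxidation step and differ in chain length, changed little and not in 1 direction. Acadl (long chain) was called higher in tumor against LLC blood (0.33 ± 0.10 on the log2 scale, edgeR adjusted p = 0.0209), while Acadm (medium chain) fell by 0.38 (SE 0.07, adjusted p = 0.00117) and Acads (short chain) by 0.27 (SE 0.09, adjusted p = 0.0276). Acadvl (very long chain) had 55.6 ± 2.02, 61.2 ± 2.69 and 56.7 ± 3.38 CPM (SD, n = 3) in the 3 groups, with a log2 difference of -0.11 in tumor against LLC blood (adjusted p = 0.224). The Acadl levels were 45.1, 45.4 and 48.9 CPM in healthy blood, 44.2, 57.9 and 49.6 in LLC blood and 58.8, 66.4 and 65.6 in tumor, so the highest LLC blood library came within about 1 CPM of the lowest tumor library. The Acadl call was lost without LLC blood 1 (0.23, adjusted p = 0.0843), LLC blood 3 (0.30, 0.0789), LLC tumor 2 (0.30, 0.0594) or LLC tumor 3 (0.31, 0.0614), and the Acads call without healthy blood 2 (-0.25, 0.0583), LLC blood 2 (-0.25, 0.0688), LLC blood 3 (-0.29, 0.0567), LLC tumor 1 (-0.24, 0.0504) or LLC tumor 3 (-0.23, 0.0989). Acadl was also not called with scaling by library totals alone (0.14, adjusted p = 0.405, and 0.29, adjusted p = 0.0983, against healthy blood), with upper-quartile factors (0.29, 0.053) or with no filter (0.27, 0.0724). The Acads call was also lost with RLE factors (-0.21, 0.0722), a stricter filter (-0.23, 0.0557), DESeq2 (-0.21, 0.0997) or only the 6 libraries compared (-0.24, 0.0778), while library totals gave -0.46, still called. Against healthy blood Acads was called lower with upper-quartile factors (-0.29, 0.0244), library totals (-0.36, 0.0275) and on the genes of the CPM table (-0.25, 0.0341), and Acadvl was called lower against LLC blood with library totals (-0.31, 0.0154).

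Of the 5 genes for hydration, the second oxidation and thiolysis, 3 fell in tumor against LLC blood and 2 were not called. Acaa2 (ENSMUSG00000036880), the mitochondrial thiolase that ends each cycle for medium chains, stood at 87.3, 82.5 and 80.1 CPM in healthy blood, 82.2, 91.3 and 83.1 in LLC blood and 35.8, 35.1 and 35.4 in tumor. The blood groups overlapped, and the 3 tumor libraries lay within 1 CPM of each other and far below both. In tumor against LLC blood, Acaa2 had a log2 fold change of -1.27 ± 0.07 (SE, edgeR adjusted p = 8.59e-07), a 2.42-fold fall.

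Echs1, the enoyl-CoA hydratase of short chains, was at 80.2 ± 5.96 CPM in healthy blood, 85.9 ± 1.26 in LLC blood and 48.7 ± 1.28 in tumor (SD, n = 3). It fell by 0.82 on the log2 scale in tumor against LLC blood (SE 0.07, edgeR adjusted p = 1.31e-05). Hadh, the dehydrogenase of medium and short chains, fell by 0.62 (SE 0.17, adjusted p = 0.012), with 15.6 CPM in LLC tumor 1 and 26.0 and 26.2 in the other tumor libraries. Without LLC tumor 1 the Hadh fold change was -0.39 on the log2 scale and still called.

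Hadha and Hadhb encode the subunits of the mitochondrial trifunctional protein, which handles long chains, and their starts flank the Hadhb window printed above. Hadha had 114.2 ± 1.97 CPM in healthy blood, 134.2 ± 2.07 in LLC blood and 145.0 ± 18.0 in tumor, and Hadhb 85.6 ± 4.31, 78.0 ± 2.29 and 75.7 ± 5.67 (SD, n = 3). Neither was called in tumor against LLC blood, where the log2 differences were 0.11 (edgeR adjusted p = 0.292) and -0.04 (adjusted p = 0.639). Against healthy blood Hadha was called higher (0.34 ± 0.09, adjusted p = 0.00634), and Hadhb had -0.18 ± 0.08 (adjusted p = 0.0641). The highest Hadha library was LLC tumor 1 with 165.5 CPM, a value that rests on its TMM factor. Scaled by library totals alone, Hadha stood at 132.0, 131.5 and 133.2 CPM in LLC tumor 1, 2 and 3. Without LLC tumor 1 the Hadha value was 0.21, still called, and that of Hadhb -0.24 (adjusted p = 0.0159). Hadhb was also called lower than in healthy blood without healthy blood 1 (-0.23, adjusted p = 0.0454) or LLC blood 2 (-0.21, adjusted p = 0.0453), and Hadha was called higher in LLC blood than in healthy blood without LLC tumor 1 (0.18, adjusted p = 0.0169), with library totals (0.26, adjusted p = 0.0078) and with only the 6 libraries compared (0.22, adjusted p = 0.00685). With scaling by library totals alone the values in tumor against healthy blood were 0.16 for Hadha, still called, and -0.35 for Hadhb, then called (adjusted p = 0.00594), as it was against LLC blood (-0.24, adjusted p = 0.0363). Hadhb was also called against healthy blood with upper-quartile factors (-0.28, adjusted p = 0.00712), with no filter (-0.24, adjusted p = 0.0322) and on the genes of the CPM table (-0.23, adjusted p = 0.0197). The difference between the genes was not tested.

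**Figure D2:**
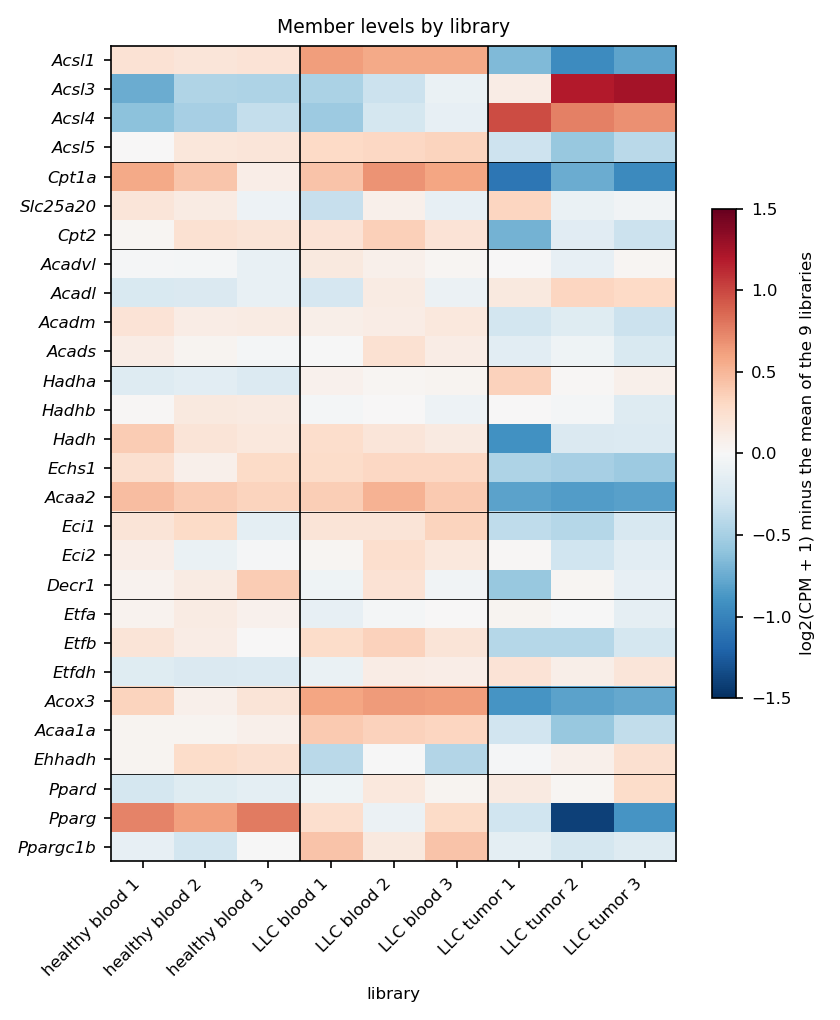
Level of each tested member (rows, in order of role) in each of the 9 libraries (columns), as log2(CPM + 1) minus the mean of the 9 libraries, red above and blue below that mean. The 3 tumor libraries are blue for Acsl1, Cpt1a, Acaa2, Echs1 and Acox3 and red for Acsl4 and Acsl3, and LLC tumor 1 is the palest tumor library for Acsl3 and Pparg.

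Among the enzymes that prepare double bonds for oxidation, Eci1 (an enoyl-CoA isomerase of mitochondria) fell by 0.63 on the log2 scale in tumor against LLC blood (SE 0.14, edgeR adjusted p = 0.00317), from 16.7 ± 1.01 to 10.8 ± 0.77 CPM (SD, n = 3). Eci2, an isomerase of mitochondria and peroxisomes, fell by 0.31 (SE 0.11, adjusted p = 0.0304), with counts that were not whole in 3 libraries. The Eci2 call was lost without LLC blood 2 (-0.29, adjusted p = 0.0662), LLC blood 3 (-0.31, 0.0649), LLC tumor 2 (-0.23, 0.109) or LLC tumor 3 (-0.30, 0.0781), and with RLE factors (-0.25, 0.0676), DESeq2 (-0.25, 0.0696) or only the 6 libraries compared (-0.27, 0.0533). With library totals it was -0.51, still called. Decr1, the mitochondrial dienoyl-CoA reductase, had 14.6 ± 1.97, 13.1 ± 1.60 and 10.9 ± 2.42 CPM (SD, n = 3) and was called in no comparison. Against healthy blood, Decr1 passed the threshold without LLC tumor 2 (-0.55, adjusted p = 0.0345), with the replicate block (-0.43, adjusted p = 0.0414), with upper-quartile factors (-0.50, adjusted p = 0.0481) and on the genes of the CPM table (-0.47, adjusted p = 0.047). Eci2 did so without LLC tumor 1 (-0.26, adjusted p = 0.0316), with upper-quartile factors (-0.25, adjusted p = 0.0379) and with library totals (-0.32, adjusted p = 0.0141).

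Electrons from the dehydrogenases pass to the flavoprotein made of the Etfa and Etfb products and on to ubiquinone through the Etfdh product. Etfb fell by 0.66 on the log2 scale in tumor against LLC blood (SE 0.09, edgeR adjusted p = 0.000167), from 52.3 ± 2.69 to 33.1 ± 2.39 CPM. Its partner Etfa had 58.4 ± 1.45 CPM in healthy blood, 53.3 ± 2.39 in LLC blood and 54.0 ± 3.57 in tumor and no call, with a log2 difference of 0.02 (adjusted p = 0.87) between tumor and LLC blood. Etfdh was at 32.0 ± 0.46, 37.9 ± 3.15 and 41.2 ± 1.71 CPM (SD, n = 3), and was called higher in tumor against healthy blood (0.37 ± 0.08, adjusted p = 0.00339), but not with scaling by library totals alone (0.20, adjusted p = 0.104). Between the blood groups Etfdh passed the threshold without LLC blood 1 (0.33, adjusted p = 0.0198) or LLC tumor 1 (0.20, adjusted p = 0.0461), and Etfa without LLC tumor 1 (-0.18, adjusted p = 0.0489). Etfdh also passed there with a stricter filter, DESeq2, limma-voom or only the 6 libraries compared (0.24 to 0.25, adjusted p = 0.0266 to 0.0485). In tumor against healthy blood Etfa was called lower with upper-quartile factors (-0.21, adjusted p = 0.0218) and library totals (-0.28, adjusted p = 0.0173).

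The peroxisomal pair Acox3 and Acaa1a carried 2 of the 3 calls between the blood groups. Acox3 (ENSMUSG00000029098, chr5:35582981-35614208), an acyl-CoA oxidase of branched chains, stood at 178.2, 148.6 and 161.2 CPM in healthy blood, 213.4, 220.0 and 218.6 in LLC blood and 76.4, 80.8 and 82.9 in tumor. The groups did not overlap, with LLC blood the highest and tumor the lowest. Acox3 had log2 fold changes of 0.42 ± 0.08 (SE, edgeR adjusted p = 0.00501) in LLC blood against healthy blood, -1.44 ± 0.08 (adjusted p = 7.68e-07) in tumor against LLC blood and -1.02 ± 0.08 (adjusted p = 4.59e-06) in tumor against healthy blood.

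Acaa1a, the peroxisomal thiolase, had 137.0, 137.0 and 140.5 CPM in healthy blood, 174.9, 169.7 and 167.0 in LLC blood and 109.5, 89.9 and 103.4 in tumor. It showed the same order of groups without overlap. Its log2 fold change was 0.30 ± 0.08 (SE, edgeR adjusted p = 0.0217) between the blood groups and -0.76 ± 0.08 (adjusted p = 3.39e-05) in tumor against LLC blood. The call between the blood groups was lost when any 1 blood library was left out: 0.30 (adjusted p = 0.0738), 0.24 (0.124) and 0.32 (0.0677) without healthy blood 1, 2 and 3, and 0.30 (0.0526), 0.31 (0.0673) and 0.33 (0.0576) without LLC blood 1, 2 and 3. Counts that were not whole stood in 9 libraries for Acox3 and in 4 for Acaa1a, which has a near-identical copy, Acaa1b, so the division of shared reads is uncertain for both. Ehhadh, the bifunctional enzyme of peroxisomes and a classical target of PPAR-alpha in liver, was near 1 CPM throughout, with 1.34 ± 0.20, 0.70 ± 0.29 and 1.20 ± 0.21 CPM (SD, n = 3) and no call, except in tumor against LLC blood without LLC blood 2 (1.15, adjusted p = 0.0483).

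**Figure D3:**
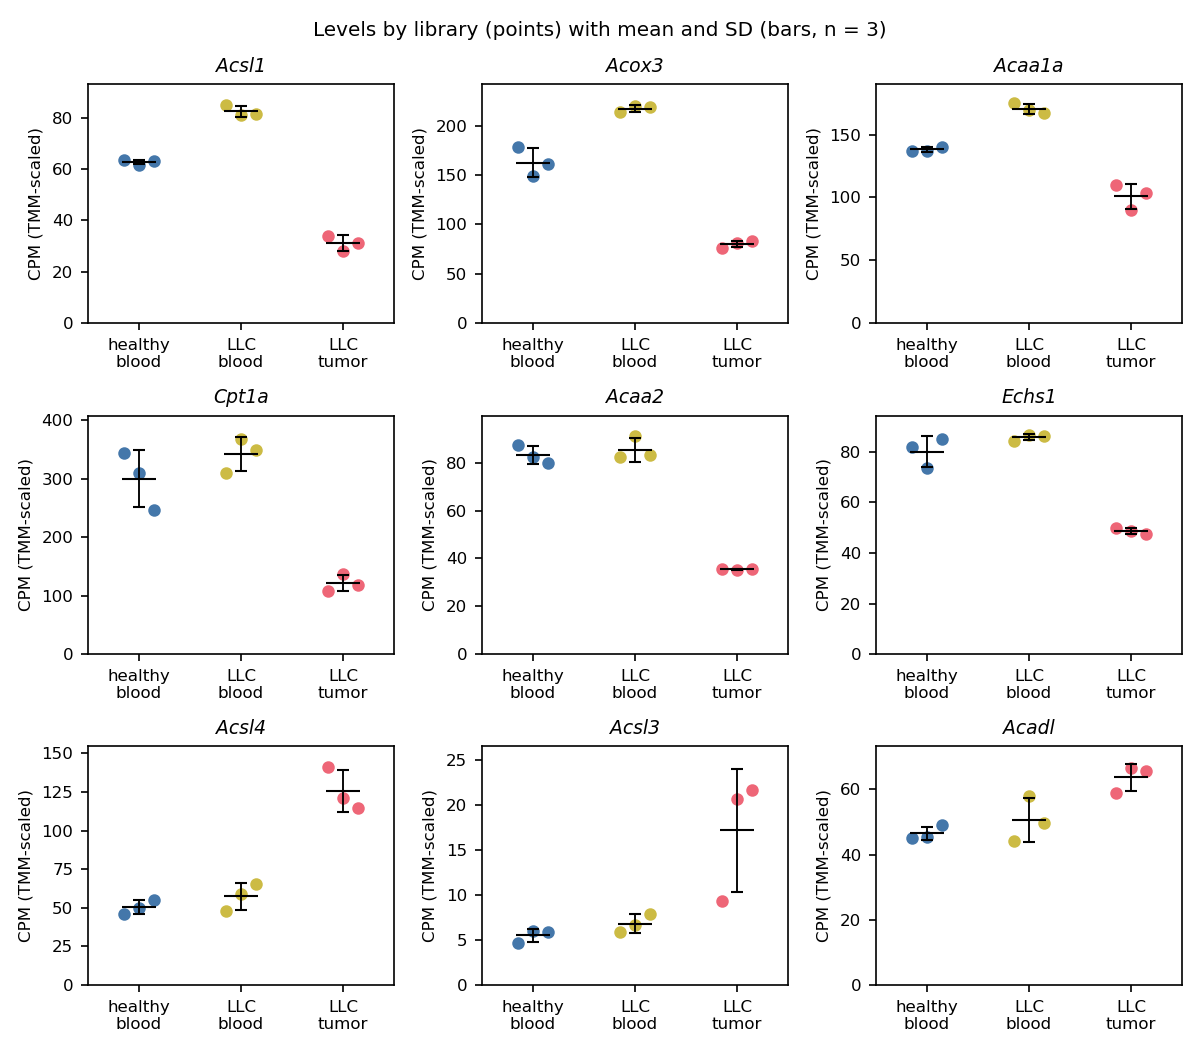
TMM-scaled CPM (y axis, from 0) in each library (points) of the 3 groups (x axis), with the mean and SD of 3 libraries as bars, for 9 members. Acsl1, Acox3 and Acaa1a are highest in LLC blood and lowest in tumor, Cpt1a, Acaa2 and Echs1 are lower in tumor than in either blood group, and Acsl4, Acsl3 and Acadl are higher in tumor.

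The receptors and coactivators differed in whether they were detected at all. Ppara, the PPAR of liver and other oxidative tissues, had 1 count in LLC blood 2 and 0 in the other libraries, and Ppargc1a, the coactivator of mitochondrial biogenesis, had counts of 0, 3 and 0 in healthy blood, 0, 0 and 2 in LLC blood and 0, 1 and 0 in tumor. Both lay at or under the floor of 3 counts, which corresponds to between 0.139 and 0.34 CPM depending on the library and covers counting error only. No fold is given for either.

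Ppard (ENSMUSG00000002250, chr17:28232754-28301469), the broadly expressed PPAR-delta, was detected in every library: 50.2, 53.2 and 54.4 CPM in healthy blood, 57.8, 67.5 and 62.3 in LLC blood and 66.4, 61.8 and 73.2 in tumor. The healthy libraries were below all others, while LLC blood and tumor overlapped. The log2 fold change was 0.35 ± 0.09 (SE, edgeR adjusted p = 0.00644) in tumor against healthy blood, 0.25 ± 0.09 (adjusted p = 0.0712) in LLC blood against healthy blood and 0.10 ± 0.09 (adjusted p = 0.343) in tumor against LLC blood. With scaling by library totals alone, the tumor difference from healthy blood was 0.19 (adjusted p = 0.173). The blood difference of Ppard passed the threshold without LLC blood 1 (0.31, adjusted p = 0.0475) and with only the 6 libraries compared (0.24, adjusted p = 0.0261).

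Pparg (ENSMUSG00000000440, chr6:115360879-115490404), the PPAR of adipocytes and of macrophage lipid handling, went the other way. It had 10.1, 9.19 and 10.4 CPM in healthy blood, 6.91, 5.25 and 7.14 in LLC blood and 4.41, 1.51 and 2.59 in tumor, from counts of 146, 155 and 176, then 76, 81 and 154, then 39, 17 and 29. The 3 groups did not overlap, and LLC tumor 1 was the highest tumor library. In tumor against LLC blood the log2 fold change was -1.20 ± 0.32 (SE, edgeR adjusted p = 0.00964), a 2.30-fold fall, and against healthy blood -1.82 ± 0.32 (adjusted p = 0.000815), a 3.54-fold fall. Between the blood groups it was -0.62 ± 0.30 and not called (adjusted p = 0.165), and it was -0.67 with an adjusted p of 0.0215 without LLC tumor 1, a library that is in neither blood group. It was also called with limma-voom (-0.62, adjusted p = 0.0453) and with only the 6 libraries compared (-0.63, adjusted p = 0.0106).

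Ppargc1b, which encodes the coactivator PGC-1-beta, had 1.18, 0.95 and 1.37 CPM in healthy blood, 2.18, 1.62 and 2.18 in LLC blood and 1.13, 0.98 and 1.07 in tumor, from 10 to 47 counts per library. The LLC blood libraries were above all others. The log2 fold change was 0.77 ± 0.28 (SE, edgeR adjusted p = 0.0776) in LLC blood against healthy blood, -0.91 ± 0.29 (adjusted p = 0.0231) in tumor against LLC blood and -0.14 ± 0.30 (adjusted p = 0.709) in tumor against healthy blood. The tumor call was lost without LLC blood 1 (-0.86, adjusted p = 0.0604), LLC blood 3 (-0.85, 0.0858), LLC tumor 2 (-0.85, 0.0741) or LLC tumor 3 (-0.92, 0.0642), without LLC blood 1 and LLC tumor 1 together (-0.86, 0.0616), with DESeq2 (-0.85, 0.0719) and with no filter (-0.97, 0.0506). The blood difference passed the threshold with only the 6 libraries compared (0.76, adjusted p = 0.0492).

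**Figure D4:**
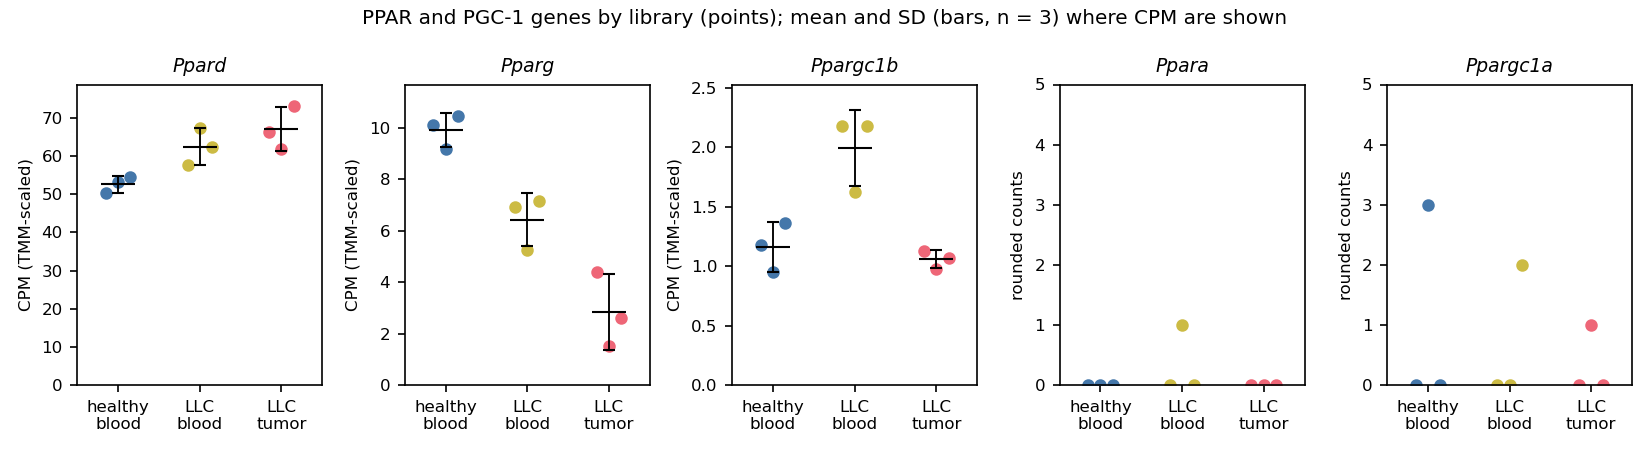
TMM-scaled CPM (first 3 panels) or rounded counts (last 2 panels) of the PPAR and PGC-1 genes (y axes, from 0) in each library (points) of the 3 groups (x axis), with mean and SD of 3 libraries as bars where CPM are shown. Pparg steps down from healthy blood to LLC blood to tumor, Ppargc1b is highest in LLC blood, Ppard is lowest in healthy blood, and Ppara and Ppargc1a have at most 1 and 3 counts in a library.

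The rest of the pathway was read from 7 lists of other genes, whose shares called are set beside 23.6% of all genes in the blood comparison and 61.3% in LLC tumor against LLC blood. Of 22 other mitochondrial oxidation genes (branched-chain and odd-chain steps and further dehydrogenases), all tested, 4 were higher and 0 lower between the blood groups, and 1 was higher and 13 lower in tumor against LLC blood, which is 18.2% and 63.6% called, with medians of 0.12 and -0.41 on the log2 scale. In LLC blood, Mut, the methylmalonyl-CoA mutase, rose from 16.6 ± 1.96 to 29.2 ± 1.82 CPM (edgeR adjusted p = 0.009). In the tumor, Acss1, the mitochondrial acetyl-CoA synthetase, fell from 38.8 ± 10.5 to 19.2 ± 2.87 CPM (adjusted p = 0.00117) and Acad8, the isobutyryl-CoA dehydrogenase of valine breakdown, from 26.7 ± 1.54 to 15.4 ± 0.84 (adjusted p = 4.7e-05). The Acss1 counts were not whole in 6 libraries.

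Of 21 other peroxisomal genes, 17 were tested. In LLC blood 1 was higher and 1 lower (11.8%), and in tumor against LLC blood 4 were higher and 7 lower (64.7%, median -0.30). Abcd2, a peroxisomal transporter of very long chains, went from 147.2 ± 13.3 to 19.2 ± 4.10 CPM (log2 fold change -2.94 ± 0.15, edgeR adjusted p = 4.88e-07). Crot, the carnitine acyltransferase that exports shortened chains from peroxisomes, went from 49.0 ± 1.85 to 21.3 ± 2.17 CPM (adjusted p = 3.81e-06).

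Of 36 genes listed as targets of PPARs, 17 were tested. In LLC blood 0 were higher and 4 lower (23.5%, close to the share of all genes, with a median of -0.35). Lpl, the lipase of lipoprotein triglycerides, went from 183.1 ± 47.1 CPM in healthy blood to 18.4 ± 2.61 (-3.32 ± 0.32, edgeR adjusted p = 0.000219), and Cd36, the scavenger receptor and fatty acid translocase, from 41.3 ± 5.20 to 7.17 ± 1.48 (-2.54 ± 0.28, adjusted p = 0.000413). In tumor against LLC blood 8 were higher and 4 lower (70.6%, median 0.61). Hilpda, a hypoxia-inducible inhibitor of lipolysis, rose from 2.43 ± 1.05 to 410.1 ± 143.0 CPM (7.47 ± 0.33, adjusted p = 2.99e-07), Abca1, the cholesterol exporter, from 8.39 ± 1.22 to 513.4 ± 115.7 (5.94 ± 0.22, adjusted p = 1.6e-07), and Fabp5, a fatty acid binding protein, from 44.9 ± 5.14 to 287.4 ± 89.7 (adjusted p = 5.12e-06). Cd36 stood at 44.99 ± 17.1 CPM in tumor, and many of these genes have other known regulators besides PPARs. Counts that were not whole stood in 2 libraries for Cd36 and in 1 for Fabp5.

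Of 27 PPAR partners and cofactors, 24 were tested. In LLC blood 7 were higher and 2 lower (37.5%), led by the acetyltransferase Ep300 (from 167.8 ± 15.7 to 286.8 ± 34.2 CPM, edgeR adjusted p = 0.00113) and the corepressor Ncor1 (from 160.1 ± 3.24 to 261.2 ± 15.9, adjusted p = 0.000345). The Ncor1 counts were not whole in 2 libraries. In tumor against LLC blood 3 were higher and 12 lower (62.5%, median -0.23). Ncoa1, a coactivator, went from 123.8 ± 4.43 to 64.8 ± 6.63 CPM (adjusted p = 1.51e-05), and Tfam, the factor of mitochondrial DNA transcription, from 32.7 ± 0.19 to 17.6 ± 1.17 (adjusted p = 2.85e-05).

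Among genes of fatty acid synthesis and desaturation, most of those called were higher. Of 21 genes, 19 were tested, of which 6 were higher and 2 lower in LLC blood (42.1%, median 0.25) and 12 higher and 4 lower in tumor against LLC blood (84.2%, median 0.74). Acaca, which makes malonyl-CoA, the inhibitor of CPT1, rose from 30.7 ± 1.68 CPM in healthy blood to 63.5 ± 6.76 in LLC blood (1.05 ± 0.16, edgeR adjusted p = 0.00192). Scd2, a stearoyl-CoA desaturase, was at 93.5 ± 9.26 CPM in LLC blood and 431.8 ± 31.6 in tumor (2.21 ± 0.14, adjusted p = 1.9e-06), with counts that were not whole in all 9 libraries.

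Lipid droplet and lipolysis genes (25 listed, 16 tested) were 3 higher and 1 lower in LLC blood (25%) and 6 higher and 4 lower in tumor against LLC blood (62.5%, median 0.21). Agpat9, an acyltransferase of triglyceride synthesis, rose from 2.69 ± 0.23 to 136.1 ± 57.1 CPM in tumor (5.65 ± 0.39, edgeR adjusted p = 2.5e-06), and Lipe, the hormone-sensitive lipase, fell from 69.4 ± 9.01 to 26.9 ± 2.55 (adjusted p = 7.84e-06), with counts that were not whole in 9 libraries. Uptake and binding genes (19 listed, 13 tested) were 1 higher and 3 lower in LLC blood (30.8%) and 7 higher and 2 lower in tumor against LLC blood (69.2%, median 0.73). The scavenger receptor Msr1, a macrophage marker, rose from 161.9 ± 9.59 to 1065 ± 352.0 CPM (adjusted p = 5.04e-06).

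**Figure D5:**
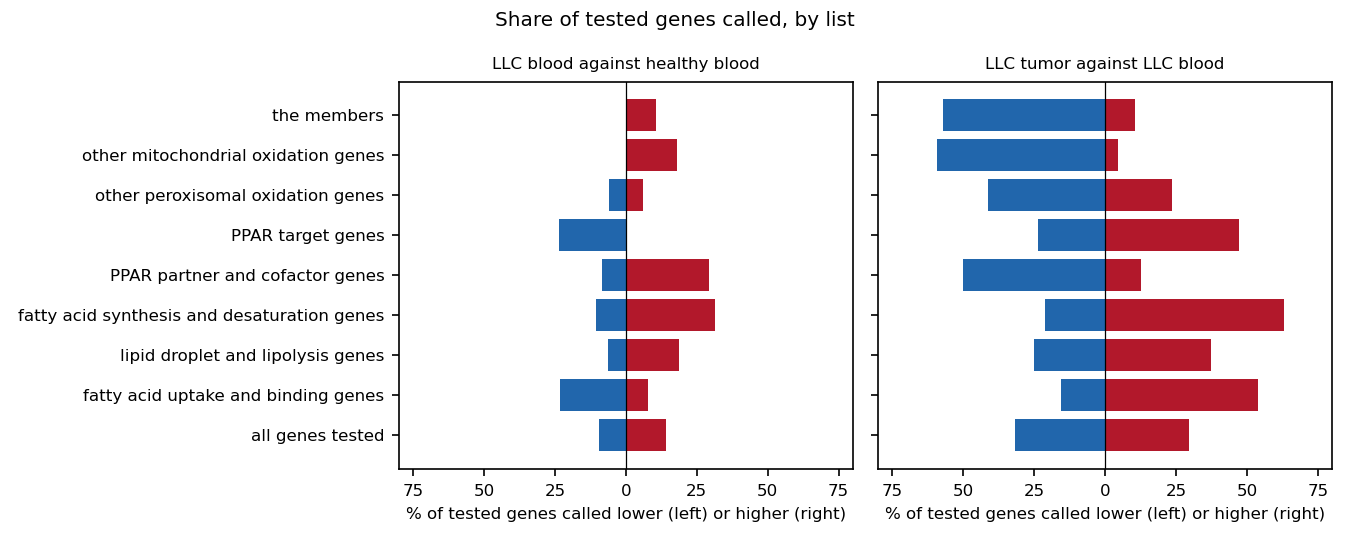
Percent of the tested genes of each list (y axis) called lower (blue, to the left) or higher (red, to the right) for the blood comparison and for LLC tumor against LLC blood (x axis, percent, both sides from 0), with all 12337 genes tested as the bottom bar. In the tumor panel the bars of the members and of other mitochondrial, other peroxisomal and partner and cofactor genes reach farther left than that of all genes. Those of synthesis, uptake, PPAR target and lipid droplet genes reach farther to the right.

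In the tumor against healthy blood, where 66.5% of all genes were called (33.5% higher and 33% lower), 63.6% of the tested other mitochondrial genes were called (4 higher, 10 lower), 76.5% of the other peroxisomal genes (6 and 7), 70.6% of the PPAR targets (6 and 6) and 70.8% of the partners and cofactors (7 and 10). The shares were 89.5% for synthesis (13 and 4), 81.2% for lipid droplet genes (9 and 4) and 84.6% for uptake (7 and 4). The lists share a few genes, such as Lpl, Cd36, Fabp5 and Hilpda. The counts between the blood groups were the least stable: PPAR targets ranged from 2 called genes (without healthy blood 3, LLC blood 2 or LLC blood 3) to 10 (without LLC tumor 1), partners and cofactors reached 16 without LLC tumor 1, and other mitochondrial genes numbered 2 when healthy blood 2, healthy blood 3, LLC blood 2 or LLC blood 3 was left out. Synthesis genes numbered 4 when healthy blood 2, LLC blood 2 or LLC blood 3 was left out and 5 without healthy blood 1, lipid droplet genes ranged from 0 (without LLC blood 2 or 3) through 1 (without healthy blood 3) and 2 (without healthy blood 1 or 2) to 7 (without LLC tumor 1), and other peroxisomal genes had 0 or 1 without any of the healthy blood libraries, LLC blood 2, LLC blood 3 or LLC tumor 3. Over all genes, the calls between the blood groups ranged from 1494 (without LLC blood 2) to 5064 (without LLC tumor 1). The counts of these lists in both tumor comparisons stayed within 1.5 times the values given when any 1 library was left out.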

How the data were processed

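The members and gene lists were chosen with earlier results of these data known. The authors deposited estimated counts, not normalized, for 24411 genes, and CPM values for 10693 of them. Per the submitters' processing notes, mm10, STAR 2.6.1d, Salmon 1.9.0, cutadapt 3.4, Trim Galore and edgeR were used, with no role given. The deposited CPM were whole multiples of 1 read (within 0.01) in 100% of values, equal to the rounded counts. Between 8.56% and 9.73% of the counts per library were not whole. The column letters BM were read as blood monocyte, from the sample titles.

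Counts were rounded and fitted with edgeR 4.0.16 (R 4.3.3) on all 9 libraries with group as the term, TMM factors and filterByExpr, which kept 12337 of 18544 genes with a count. P-values were adjusted by Benjamini-Hochberg over all of them. Values per library are given for members changed at least 2-fold in the blood comparison or in LLC tumor against LLC blood, for PPAR and PGC-1 genes and for Cpt1a and Cpt2; each other list names up to 3 called genes that average 20 CPM or more. Per-library values of Acaa1a, Acadl, Hadh and Hadha were added after their values were seen. Alternatives were other scaling, filters, thresholds, DESeq2 1.42.0, limma 3.58.1 voom, a replicate block, and leaving out each library. The other 22 samples of the series (ATAC-seq, CUT&Run and CUT&Tag) were not analysed here.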

Additional observations from a re-analysis of the deposited data

How the results depend on the processing

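No called member changed sign under the alternatives, of which 22 were run (21 for Ppargc1b, which the stricter filter removed) and 1 (leaving out LLC blood 1 and LLC tumor 1 together) was chosen after seeing the data. The median log2 fold change of the members in LLC tumor against LLC blood and against healthy blood was -0.28 and -0.25 with RLE factors, -0.39 and -0.40 with upper-quartile factors, -0.54 and -0.46 with library totals only, -0.41 and -0.36 with no filter, -0.30 and -0.37 with a stricter filter, -0.28 and -0.25 with DESeq2, and -0.39 and -0.36 on the genes of the CPM table. Library totals only moved the median of all genes to -0.23 and -0.17. They gave 2 higher and 18 lower members against LLC blood and 3 and 17 against healthy blood, and turned the sign of 5 uncalled members (Slc25a20, Hadha, Etfa, Etfdh and Ppard) against LLC blood. With library totals, 7866 and 8323 of all genes were called in these comparisons, against 7566 and 8208 in the fit used above. In the blood comparison the median was 0.081 with upper-quartile factors. Members called there were 5 (1 lower) with limma-voom and 9 (8 higher, 1 lower) with only the 6 libraries compared. Over all genes, the calls in the blood comparison were 3110 and 4889 with these settings, against 2917 in the fit used above. Requiring at least 2-fold left 0 members (0 higher) there, 7 (5 lower) in LLC tumor against LLC blood and 7 (2 higher, 5 lower) against healthy blood.

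Without LLC blood 1 and LLC tumor 1 together, 7 members (6 higher, 1 lower) were called between the blood groups, with a median of 0.095, and the median was -0.27 in tumor against healthy blood. With 1 library left out at a time, members called between the blood groups numbered 1 without healthy blood 2 and up to 7 when LLC tumor 1 was left out, higher 1 to 5, lower 0 to 2, with a median of 0.082 to 0.17. The same ranges were 15 to 19, 2 to 4 and 13 to 16 (median -0.40 to -0.32) in LLC tumor against LLC blood, and 19 to 21, 6 to 6 and 13 to 15 (median -0.37 to -0.27) against healthy blood. Over all genes, calls between the blood groups ranged from 1494 to 5064. They ranged from 6896 to 8636 in LLC tumor against LLC blood and from 7571 to 9423 against healthy blood.

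The labels do not say whether replicate numbers mark the same mice, so the numbers were not used as pairs. Correlations of deviations between tumor and LLC blood libraries of the same number were -0.03, 0.15 and -0.12. Between different numbers of these groups they ranged from -0.11 to 0.14. The highest with the same number, 0.30, was between LLC blood 1 and healthy blood 1, which come from different mice. With the replicate block 3, 19 and 20 members were called in the 3 comparisons, against 3, 19 and 19 without it. The added call is Decr1 in tumor against healthy blood. Over all genes, 2788, 7455 and 8092 were called with the block, against 2917, 7566 and 8208 without it. Calls near 1 CPM, as for Ehhadh and Ppargc1b, rest on few counts.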
